A study of Mus musculus with 9 samples.

Results

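The Bcl-2 family decides at the mitochondrion whether a cell lives. Bax and Bak1 form the pores of the outer mitochondrial membrane, Bcl2, Bcl2l1 (Bcl-xL) and Mcl1 hold them back, and the BH3-only proteins, among them Bcl2l11 (Bim), Bad, Bid, Bbc3 (Puma) and Pmaip1 (Noxa), bind the guardians or the pore formers and tip cells towards death. In T cells Bim removes self-reactive thymocytes and ends most responses of activated cells, and it is opposed mainly by Bcl2 and Mcl1. These 10 genes were taken by their symbols from a table of 23171 gene rows, and 10 of 10 were present.

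The RNA was from CD4 T cells of C57BL6 mice, taken from lymph nodes and spleen. According to the labels, the animals were given chimeric antibodies that deliver antigen to dendritic cells 5 days before sorting, and the T cells were then stimulated again by antigen-presenting cells (APCs) in culture for 12 h and sorted a further time. The same steps are given for all 9 libraries, 3 labelled naive, 3 Hopx low and 3 Hopx high, the naive ones included. Hopx is an atypical homeodomain protein that acts without contacting DNA itself. The labels give no genotype, age, sex or marker by which Hopx levels were sorted, and do not say whether replicates were separate animals, so p-values measure the spread between these samples, which may be technical. The study compared antigen-specific T cells that express different levels of Hopx.

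Values are bases of coverage per megabase (Mb) of a library's summed coverage, which was 63.3 to 289 megabases in naive, 330 to 442 in Hopx low and 203 to 800 in Hopx high. If a read covers 100 bases, a length assumed here, 1 read is worth 0.125 to 1.58 bases per Mb. Gas5, a non-coding RNA gene, took 1.16% to 40.0% of the coverage of a library. The first 2 naive replicates have descriptions that read 1A and 1B. With Gas5 left out, they differed by about the sampling noise of such reads. Their median chi-square ratio was 1.05, where other pairs of libraries of one group gave 7.16 to 18.3. Gas5 itself differed between them, at 40.0% in replicate 1 and 29.1% in replicate 2. These 2 libraries were averaged and counted as 1 sample, which leaves n = 2 for naive. Xist, the RNA of the inactive X chromosome, was at 76.1 to 263 in the naive libraries and did not exceed 0.400 in the Hopx libraries, while Ddx3y, a gene of the Y chromosome, was at 30.7 to 85.5 in the Hopx libraries and was at 0, 0.3004 and 0.211 in naive replicates 1, 2 and 3. The naive and Hopx libraries thus differed in the sex these genes mark, and in every comparison with naive the sex of the animals and the group cannot be told apart. Hopx itself had 4.89 to 8.95 in Hopx high, 3.29 to 6.90 in Hopx low and at most 1.64 in naive. The CD4 T cell markers Cd4, Cd3e, Cd3g, Cd5 and Cd28 summed to 429 to 1614 bases per Mb in each library, and Cd8a had a mean of at most 0.121 in any group, with 14.8 to 31.1 for Cd8b1.

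The bases that encode the BH3 helix are shown for 9 members, because this helix is the part by which BH3-only proteins dock onto their relatives. Each line gives 9 codons of a GENCODE M21 transcript (GRCm38), 5′ to 3′ on the coding strand, with the codons of the conserved leucine and aspartate in capitals.
Bcl2l11: gagCTGcggcggatcggaGACgagttc
Bbc3: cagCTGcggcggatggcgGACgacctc
Bad: gagCTCcgaaggatgagcGATgagttt
Bid: catCTCgcccaaataggcGATgagatg
Bax: tgtCTCcggcgaattggaGATgaactg
Bak1: cagCTTgctctcatcggaGATgatatt
Bcl2: accCTCcgccgggctgggGATgacttc
Bcl2l1: gcgCTGagagaggcaggcGATgagttt
Mcl1: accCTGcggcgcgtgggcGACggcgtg
Of these 27 bases Bbc3 shared 21 with Bcl2l11 and Bad 19, while Bid shared 14 and the remaining members 16 or 17. In Bcl2l11 the leucine is codon 150 and the aspartate codon 155 of 196, and 4 of its 5 coding transcripts held the stretch.

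Bcl2l11 was the only member whose libraries did not overlap between any of the 3 groups. In the fit to all 3 groups, only its difference between Hopx high and naive passed. Its coverage was highest in naive, intermediate in Hopx low and lowest in Hopx high. The gene, which encodes Bim, lies on the forward strand at chr2:128126038-128162547 of GRCm38, and no other annotated gene overlaps it. It had 299, 317 and 306 bases per Mb in naive replicates 1, 2 and 3. It had 208, 208 and 121 in Hopx low replicates 1, 2 and 3. It had 84.2, 52.2 and 43.5 in Hopx high replicates 1, 2 and 3. No library of one group reached the range of another, and the lowest Hopx low library, replicate 3, was the one nearest to Hopx high. Among 10825 genes tested, 1.07% had this full separation in the order naive, Hopx low, Hopx high, and Bcl2l11 was the only member among them.

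The Bcl2l11 mean was 307 ± 1.16 (SD, n = 2) in naive, 179 ± 50.4 (n = 3) in Hopx low and 59.9 ± 21.4 (n = 3) in Hopx high. Hopx high therefore held 0.195 of the naive level and 0.335 of the Hopx low level. Against naive, Bcl2l11 fell by 2.39 ± 0.48 (SE) on the log2 scale in Hopx high (limma, adjusted p = 0.00639), and it was the 1 member of 10 that passed, where 3.8% of all genes passed, 3.3% as higher and 0.499% as lower (411 genes, or 183 with a replicate block). Between Hopx low and naive the log2 difference was -0.82 ± 0.48, which did not pass (limma, adjusted p = 0.676), and 0 of 10 members passed where 0.305% of all genes did, 0.296% as higher and 0.00924% as lower (33 genes, or 9 with a replicate block). At an unadjusted p under 0.05 there were 3 of 10 members in Hopx high against naive, where 15.5% of all genes were, and 1 of 10 in Hopx low against naive, where 8.52% of all genes were, so the latter is near the background. In bulk RNA fewer cells that express the gene and less RNA per cell cannot be told apart. The call in Hopx high against naive held under all 18 alternatives, with adjusted p from 0.00127 to 0.0372.

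Hopx high and Hopx low differed in Bcl2l11 by -1.58 on the log2 scale, 2.99-fold in the means. The Hopx high library lay below the Hopx low library of the same replicate number in 3 of 3 pairs, which follows from the lack of overlap. In the fit to all 3 groups the difference did not pass (limma, SE 0.43, unadjusted p = 0.00170, adjusted p = 0.435, or 0.594 with a replicate block). In that limma fit 0 of 10825 genes (0%) passed, 487 genes (4.5%) had an unadjusted p under 0.05, and Bcl2l11 was the 1 member among these. A further fit, to the 6 Hopx libraries only, leaves the spread of the naive samples out and was chosen with earlier results of these data known. In that fit Bcl2l11 was called lower (limma, SE 0.39, adjusted p = 0.0460). It was the 1 member of 10 called, where 0.636% of all genes were called and 0.148% called lower. That call held in 2 of 13 alternatives, with a replicate block (adjusted p = 0.0235) and without Hopx high replicate 1 (0.0401), and was lost in the other 11, with limma adjusted p up to 0.374. It was lost without any single one of Hopx low replicates 1 (0.174), 2 (0.191) and 3 (0.137) and Hopx high replicates 2 (0.149) and 3 (0.243). The direction was the same in every alternative, with log2 differences from -1.85 to -1.32. The authors' deposited table gives Bcl2l11 a ratio of 0.335 for Hopx high over Hopx low with an unadjusted p = 0.0196, and a ratio of 0.195 over naive with an unadjusted p = 5.09e-05.

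The median of all genes was itself -0.25 between Hopx high and Hopx low, 0.15 between Hopx high and naive and 0.38 between Hopx low and naive. When the median gene of each library was used for scaling, Bcl2l11 differed by -1.32 between Hopx high and Hopx low, by -2.56 between Hopx high and naive and by -1.23 between Hopx low and naive.

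A B cell marker, looked at because B cells are among the antigen-presenting cells of these organs, had group means in the same order as Bcl2l11. Cd79a, a chain of the B cell receptor, had 13.7, 8.18 and 13.8 bases per Mb in the naive libraries, 8.29, 3.71 and 6.79 in Hopx low and 0.261, 0.635 and 1.10 in Hopx high. Naive replicate 2 lay just below Hopx low replicate 1, and over the Hopx high replicates the order was the reverse of that of Bcl2l11. Cd79a was called lower in Hopx high against naive (log2 difference -3.03, limma adjusted p = 0.00771) and against Hopx low in the 6 Hopx libraries (-2.10, adjusted p = 0.0320). The markers Cd79b, Ms4a1 and Pax5 had means under 1 and were not tested. They were at 0 in naive replicates 1 and 2, and their highest values were 1.81, 3.52 and 0.457 in naive replicate 3, 1.03, 2.14 and 0.922 in Hopx low and 0.0437, 0.202 and 0.331 in Hopx high. The part of B cell RNA in the Bcl2l11 difference was not tested. Dendritic cell and monocyte markers summed to 2.24 to 10.1 over all libraries, with 2 of 6 reaching a mean of 1, and NK cell markers to at most 0.324, with Klrb1c at 0 throughout.

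**Figure D1:**
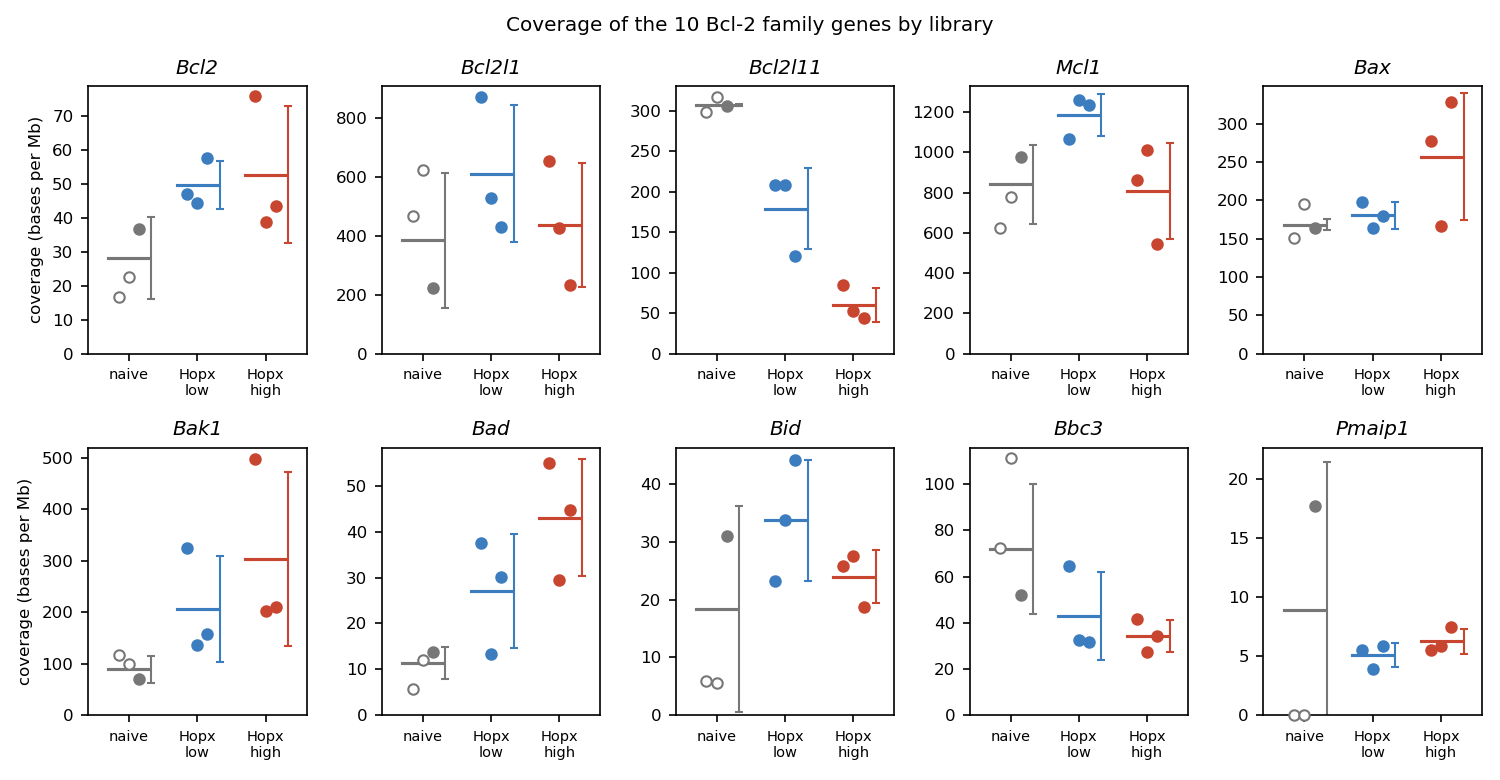
Coverage in bases per Mb of the 10 members in each library, by group, with the group mean as a line and the SD as a bar (cut at 0 for Pmaip1). Open circles are naive replicates 1 and 2, which were averaged as 1 sample. Bcl2l11 runs from about 307 in naive to 59.9 in Hopx high with no overlap between groups, while every other member overlaps in at least 1 comparison of groups.

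The 3 anti-apoptotic genes showed no such order. Mcl1, a short-lived guardian that T cells need at every stage, had 626, 778 and 979 bases per Mb in naive replicates 1 to 3. It had 1066, 1261 and 1233 in Hopx low and 864, 1012 and 544 in Hopx high. All Hopx low libraries lay above all libraries of both other groups, and the Hopx high and naive ranges overlapped. Mcl1 and Bcl2l11 were the 2 of 10 members whose Hopx high libraries all lay below the Hopx low libraries, which held for 10.1% of all genes. The Mcl1 log2 difference of -0.60 ± 0.43 between Hopx high and Hopx low did not pass (limma, adjusted p = 0.992), nor did 0.51 ± 0.48 between Hopx low and naive (adjusted p = 0.799).

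Bcl2, the guardian that naive T cells depend on, had 16.5, 22.5 and 36.8 bases per Mb in naive. It had 47.0, 44.4 and 57.8 in Hopx low and 75.9, 38.8 and 43.5 in Hopx high. Every Hopx library was above every naive library, by a little in Hopx high replicate 2, and the Hopx groups overlapped. Its log2 difference was 0.86 ± 0.54 in Hopx low and 0.89 ± 0.54 in Hopx high against naive (limma, adjusted p = 0.696 and 0.482), and 0.03 ± 0.48 between the Hopx groups (adjusted p = 0.997), where the sign turned without Hopx low replicate 1, Hopx low replicate 2 or Hopx high replicate 1. The gene spans chr1:106538178-106714274 on the reverse strand, and the antisense gene D630008O14Rik overlaps it by 33103 bases. The sources used here do not say whether counting used strand, so reads from the antisense gene cannot be told apart from reads of Bcl2.

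Bcl2l1, the guardian Bcl-xL that costimulation raises in activated T cells, was the most variable of these genes within groups. It had 470, 624 and 223 bases per Mb in the naive libraries, 875, 528 and 432 in Hopx low and 654, 426 and 232 in Hopx high. The 3 groups overlapped widely, although Hopx high was below Hopx low in 3 of 3 same-numbered pairs. Log2 differences were -0.54 ± 0.49 between Hopx high and Hopx low (limma, adjusted p = 0.992), 0.20 ± 0.55 between Hopx high and naive (0.925) and 0.74 ± 0.55 between Hopx low and naive (0.751).

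Ratios between genes of the same library do not depend on the scaling of that library, except through the 1 added to each value before the log. The log2 ratio of Bcl2l11 to Bcl2 was 4.10, 3.76 and 3.02 in naive, 2.13, 2.20 and 1.05 in Hopx low and 0.15, 0.42 and -0.00 in Hopx high. The groups did not overlap, and the mean in Hopx high (0.19 ± 0.21, SD, n = 3) differed by -1.61 from that in Hopx low (1.79 ± 0.64). The ratio to Bcl2l1 was -2.78 ± 0.34 in Hopx high and -1.74 ± 0.37 in Hopx low, a difference of -1.04. The ratio to Mcl1 was -3.74 ± 0.47 in Hopx high and -2.76 ± 0.52 in Hopx low, a difference of -0.98. In that last ratio the groups came closest, Hopx high replicate 1 and Hopx low replicate 3 both being at -3.34 to 2 decimals. Each of the 3 ratios had an exact two-sided permutation p = 0.1, which is the smallest that 3 against 3 samples can give, so none can pass, and the ratios share Bcl2l11.

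**Figure D2:**
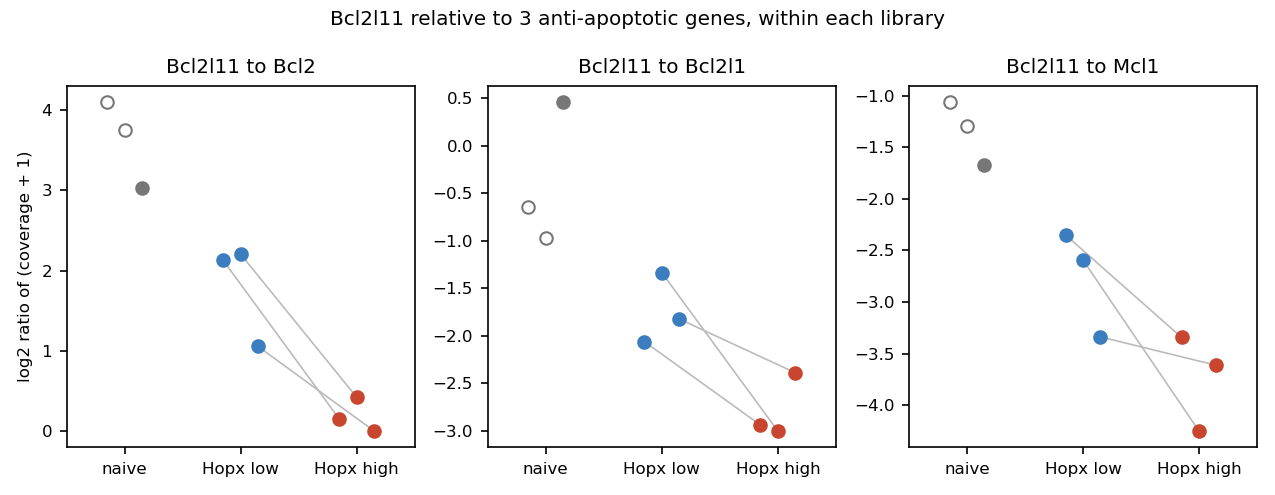
Within-library log2 ratio of Bcl2l11 to Bcl2, to Bcl2l1 and to Mcl1 (coverage in bases per Mb plus 1), by group. Points are libraries, open circles are naive replicates 1 and 2, and grey lines join Hopx libraries of the same replicate number. The ratio to Bcl2 lies between 3.02 and 4.10 in naive and at or under 0.42 in Hopx high.

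The pore-forming genes lay higher in the Hopx libraries than in naive by their means, without passing. Bak1, whose protein sits on the mitochondrial membrane, had 116, 98.8 and 69.7 bases per Mb in naive. It had 325, 136 and 157 in Hopx low and 498, 201 and 210 in Hopx high. Every Hopx library was above every naive library, the Hopx groups overlapped, and replicate 1 was the highest of both Hopx groups. The mean in Hopx high was 3.42 times that in naive (303 ± 169 against 88.7 ± 26.8), with a log2 difference of 1.66 ± 0.53 (limma, unadjusted p = 0.00574, adjusted p = 0.0953). It passed only where naive replicates 1 and 2 were kept as separate samples (adjusted p = 0.0463). Against naive, Hopx low differed by 1.13 ± 0.53 (limma, adjusted p = 0.575), and the Hopx groups by 0.53 ± 0.48 (0.992). Bak1 shares its locus with Ggnbp1 on the opposite strand over 9200 bases, a gene with a mean of 2.14 bases per Mb in the same table.

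Bax, the pore former that moves from the cytosol to mitochondria, had 151, 195 and 163 bases per Mb in the naive libraries, 198, 163 and 179 in Hopx low and 277, 166 and 328 in Hopx high. Hopx high replicates 1 and 3 were above all other libraries and replicate 2 was within the range of the other groups. The log2 difference was 0.46 ± 0.41 between Hopx high and Hopx low (limma, adjusted p = 0.992) and 0.55 ± 0.46 between Hopx high and naive (0.658). Between Hopx low and naive it was 0.10 ± 0.46 (0.972), and it turned to -0.32 under scaling by the median gene. Over the Hopx groups Bax, Bak1 and Bad were higher in Hopx high in 3 of 3 same-numbered pairs, and Bcl2l11, Mcl1 and Bcl2l1 were lower in 3 of 3. For Bcl2l11 and Mcl1 this follows from Hopx groups that do not overlap. For Bax the values of replicate 2 were nearly equal, at 166 and 163. None of these members passed between the Hopx groups in the fit to all 3 groups. The share of all genes with 3 of 3 pairs in one direction was not counted, so these counts are a description.

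The BH3-only genes did not move together. Bad, a sensitizer that survival signals silence by phosphorylation, had 5.76, 12.1 and 13.9 bases per Mb in naive. It had 37.5, 13.2 and 30.2 in Hopx low and 54.9, 29.5 and 44.8 in Hopx high. All Hopx high libraries lay above all naive libraries, while Hopx low replicate 2 lay within the naive range. The log2 difference of 1.81 ± 0.61 between Hopx high and naive (means 43.1 ± 12.8 and 11.4 ± 3.48) did not pass in limma (unadjusted p = 0.00764, adjusted p = 0.116). It passed with naive replicates 1 and 2 as separate samples (0.0384) and without naive replicate 3 (0.0103). Gpr137 on the opposite strand overlaps Bad by 620 bases and had a mean of 23.7 bases per Mb.

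Bbc3, which encodes Puma and is induced by p53 and by forkhead factors, was the other member whose Hopx high libraries all lay below naive, which held for 10.1% of all genes. Its naive libraries were at 72.4, 112 and 52.2 bases per Mb, with 64.7, 32.3 and 31.5 in Hopx low and 41.4, 27.3 and 34.2 in Hopx high. Hopx low replicate 1 lay within the naive range, and the Hopx groups overlapped. The log2 difference was -1.01 ± 0.54 between Hopx high and naive (limma, adjusted p = 0.404), -0.76 ± 0.54 between Hopx low and naive (0.744) and -0.25 ± 0.49 between the Hopx groups (0.992).

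Bid and Pmaip1 were low and depended on naive replicate 3. Bid, which caspase-8 cleaves to link death receptors to mitochondria, had 5.84, 5.57 and 31.0 bases per Mb in the naive libraries, 23.2, 33.8 and 44.2 in Hopx low and 25.8, 27.6 and 18.7 in Hopx high. Pmaip1, the Mcl1-binding Noxa, was listed at 0 in naive replicates 1 and 2 and had 17.7 in naive replicate 3, 5.53, 3.91 and 5.83 in Hopx low and 5.49, 5.82 and 7.45 in Hopx high. For both genes naive replicates 1 and 2 were the lowest of all 9 libraries, and naive replicate 3 lay within the Hopx range for Bid and above it for Pmaip1. Neither passed in any of the 3 comparisons (limma, adjusted p from 0.659 to 0.992). Without naive replicate 3, which leaves naive as 1 sample assumed to vary like the others, both were called higher in both Hopx groups, with log2 differences of 1.88 and 2.33 for Bid (adjusted p = 0.0167 and 0.00376) and 2.85 and 2.59 for Pmaip1 (0.00172 and 0.00414), the first value of each pair for Hopx high. Bcl2l13 on the opposite strand overlaps Bid by 913 bases and had a mean of 51.5 bases per Mb.

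**Figure D3:**
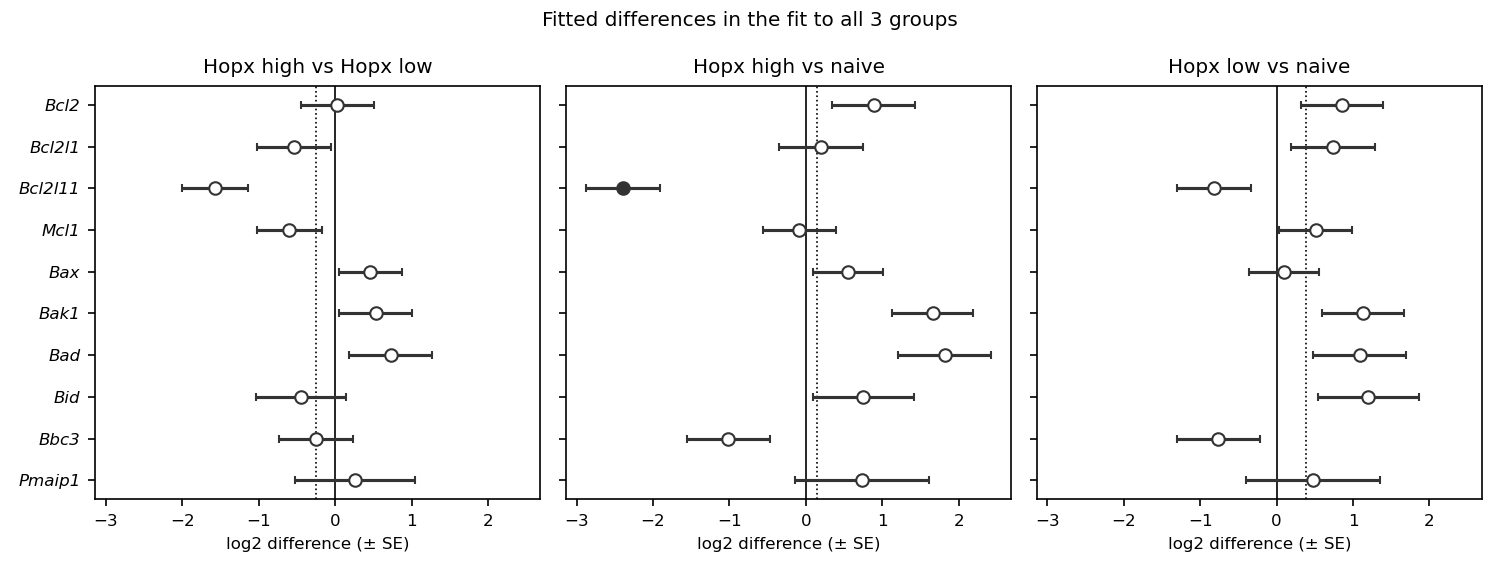
Log2 differences of the 10 members with their SE (log2 of bases per Mb plus 1) in limma's fit to all 3 groups. The dotted line is the median of all tested genes, -0.25, 0.15 and 0.38 from left to right, and filled symbols passed an adjusted p of 0.05. Bcl2l11 in Hopx high against naive is the 1 filled symbol.

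Over the 10 members, 10 of which passed the filter on low values, the median log2 difference was -0.11 between Hopx high and Hopx low, 0.64 between Hopx high and naive and 0.63 between Hopx low and naive, beside -0.25, 0.15 and 0.38 over all genes. Higher groups without overlap were seen for Bcl2, Bak1 and Bad in Hopx high against naive (3 of 10 members, 15.3% of all genes, 25.3% with either direction) and for Bcl2, Mcl1 and Bak1 in Hopx low against naive (3 of 10, 19.1% of all genes, 22.9% with either direction). Lower groups without overlap were Bcl2l11 and Bbc3 in Hopx high (2 of 10) and Bcl2l11 in Hopx low (1 of 10, 3.81% of all genes). The comparisons with naive share the naive samples.

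Levels of different genes were compared per kilobase (kb) of annotated exon length, from GENCODE M21, which may differ from the authors' gene models. Mcl1 led in naive with 246 bases per Mb per kb and in Hopx low with 347, followed by Bax with 194 and 208. In Hopx high the means of Bax (296) and Mcl1 (236) were in the other order, with overlapping ranges of 191 to 378 and 159 to 296. Bcl2l11 had rank 4 of the 10 members in naive with 44.5, ahead of Bbc3 (39.7) and Bak1 (37.1), whose ranges include it. It had rank 5 in Hopx low with 26.0 and rank 8 in Hopx high with 8.69, with a range of 6.31 to 12.2 that overlaps those of Bid and Bcl2. Bcl2 was near the end in every group, at 3.07, 5.43 and 5.76 in naive, Hopx low and Hopx high, with Pmaip1 at 3.25, 1.86 and 2.29. Bak1 had rank 6 in naive, rank 4 in Hopx low (86.2) and rank 3 in Hopx high (127).

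Promoters of Bcl2l11 and Bbc3 are shown because these members had all Hopx high libraries below naive and because forkhead factors are known to activate both genes when cytokines are withdrawn. The RefSeq promoter table (GRCm38.p6) held 15 windows for 9 of the 10 members, all but Pmaip1, each of 300 bases from 250 before to 50 after a start. The motifs were chosen after the members' values were seen and were searched on both strands. The forkhead motif GTAAACA was present in 3.65% of all 32851 windows, and in 2 of the 15 windows of members, 1 of the 2 of Bcl2l11 and 1 of the 3 of Bbc3. The STAT motif TTCNNNGAA was present in 8.3% of all windows and in 0 of the 15, so no match of one overlapped the other there. The 250 bases before the start are given 5′ to 3′ on the gene's strand, with the forkhead motif or its reverse complement in capitals, for Bcl2l11 at chr2:128125788-128126037 (forward strand) and Bbc3 at chr7:16310011-16310260 (forward strand).
Bcl2l11: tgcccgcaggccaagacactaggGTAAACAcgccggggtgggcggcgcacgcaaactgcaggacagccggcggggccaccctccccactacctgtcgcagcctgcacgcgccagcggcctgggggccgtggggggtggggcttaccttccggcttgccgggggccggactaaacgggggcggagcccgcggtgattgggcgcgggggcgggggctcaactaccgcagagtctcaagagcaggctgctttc
Bbc3: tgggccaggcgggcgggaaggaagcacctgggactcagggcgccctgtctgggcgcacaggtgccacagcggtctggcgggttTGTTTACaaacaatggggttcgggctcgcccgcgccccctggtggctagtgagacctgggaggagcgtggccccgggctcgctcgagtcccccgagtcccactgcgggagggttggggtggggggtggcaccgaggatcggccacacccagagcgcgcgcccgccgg
The match begins 227 bases before this start of Bcl2l11 and 167 bases before this start of Bbc3, and the windows at their other annotated starts held 0 matches. A match in these letters is a description and does not show that a factor binds there.

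Of 14 other Bcl-2 family genes 9 were tested, and 2 were called higher in Hopx high against naive, where 3.3% of all genes were. Bcl2l12, a divergent relative, had 0.868, 2.31 and 4.38 bases per Mb in the naive libraries, 17.4, 11.9 and 12.4 in Hopx low and 34.1, 12.8 and 24.5 in Hopx high (log2 difference 2.63 against naive, limma adjusted p = 0.0267). Bik, a BH3-only gene, was listed at 0 in naive replicates 1 and 2 and had 0.747 in naive replicate 3, against 8.16, 4.54 and 6.14 in Hopx high (2.43, limma adjusted p = 0.0459). All libraries of Hopx high lay above all naive libraries for both genes, which held for 15.3% of all genes. None of the 9 was called in Hopx low against naive or between the Hopx groups. The list's median was 0.41 in Hopx high and 1.32 in Hopx low against naive, with 9 of 9 above 0 in each, beside 0.15 and 0.38 over all genes, and -0.26 between the Hopx groups.

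In the other lists of the apoptosis pathway 0 genes were called by limma in any comparison. Of 8 apoptosome and caspase genes the medians were -0.37, 0.10 and 0.74 in Hopx high against Hopx low, Hopx high against naive and Hopx low against naive, and the most covered, Casp2 and Casp8, differed by -0.57 and -0.31 between the Hopx groups. Of 7 inhibitors of apoptosis and their antagonists the medians were -0.35, -0.27 and 0.31. Birc6, the most covered of them, differed by 0.10 between the Hopx groups and Htra2, a mitochondrial protease, by 0.30. Of 8 death receptor genes the medians were -0.52, -0.11 and 0.49, and Cflar, the inhibitor of caspase-8, differed by -0.12 and Tradd by -0.36 between the Hopx groups.

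Of 14 regulators of the family 0 were called, with medians of -0.33, -0.23 and -0.06 in the same order. The most covered was Nr4a1, an early gene of T cell receptor signalling whose protein can bind Bcl2, with means of 2763 ± 1613 (SD, n = 2) in naive, 2167 ± 1197 (n = 3) in Hopx low and 998 ± 547 (n = 3) in Hopx high (log2 difference -1.46 against naive, limma adjusted p = 0.213). Huwe1, a ubiquitin ligase of Mcl1, differed by 0.07 between the Hopx groups. In Hopx high against naive 5 of the 14 regulators had a log2 difference above 0, Trp53 (0.33) among them. Foxo1, another forkhead factor, differed by -0.59 there, with overlapping groups. After their values were seen, Foxo3, Ddit3 and Casp6 were also picked out. Whether Foxo3 or Ddit3 had a part in the Bcl2l11 difference was not tested. Foxo3, a forkhead factor that activates Bcl2l11, had 51.1, 88.3 and 65.8 bases per Mb in the naive libraries, 63.0, 35.9 and 35.3 in Hopx low and 38.5, 18.2 and 19.99 in Hopx high. All Hopx high libraries of Foxo3 lay below naive, which held for 10.1% of all genes, and the log2 difference of -1.45 did not pass (limma, adjusted p = 0.180). Ddit3, a stress factor known as CHOP that can activate Bcl2l11, had 38.8, 50.8 and 30.1 in naive, 23.4, 9.68 and 20.7 in Hopx low and 12.9, 6.68 and 2.99 in Hopx high (-2.32 against naive, limma adjusted p = 0.0608). Casp6, an executioner caspase, had 3.51, 2.13 and 16.1 in naive, 10.4, 8.88 and 13.5 in Hopx low and 3.71, 4.06 and 0.610 in Hopx high. Its mean was highest in Hopx low, unlike that of Bcl2l11. The difference between the Hopx groups did not pass in the 6 Hopx libraries (limma, adjusted p = 0.0924).

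**Figure D4:**
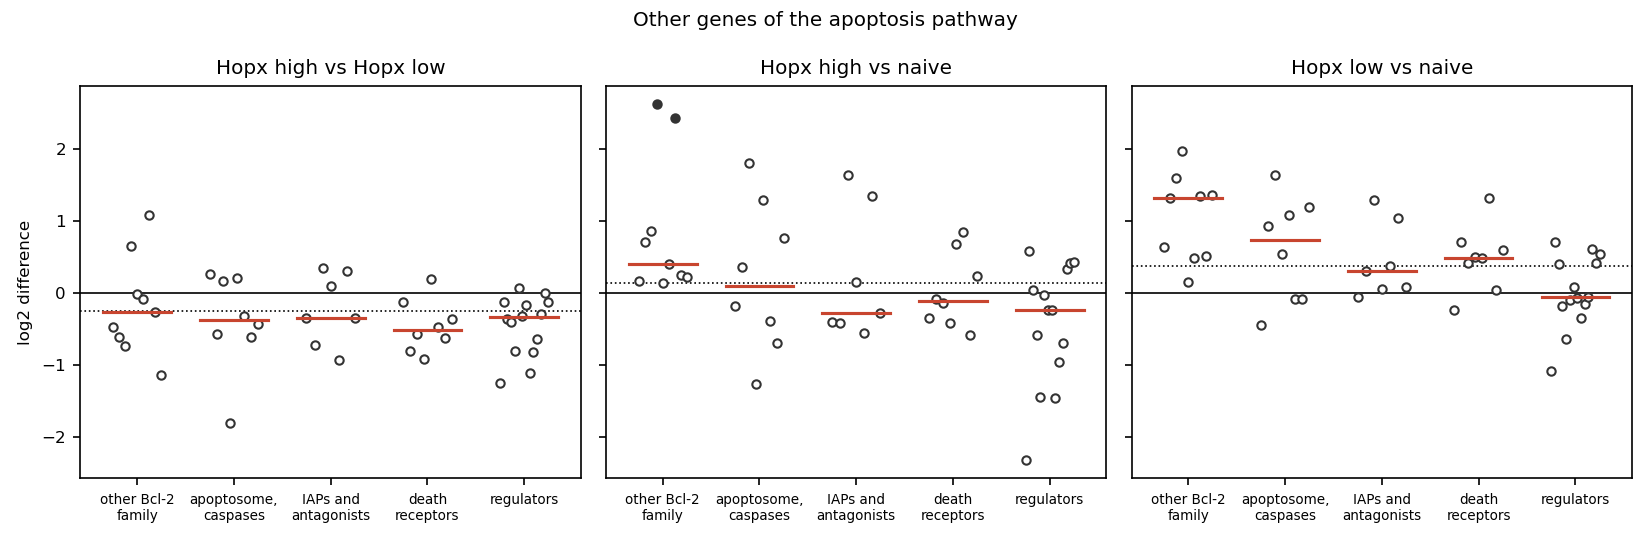
Log2 differences of the tested genes of 5 lists in the apoptosis pathway (log2 of bases per Mb plus 1), in limma's fit to all 3 groups. Each circle is a gene, filled where the adjusted p was under 0.05, the red line is the list's median and the dotted line the median of all genes. The 2 filled circles are Bcl2l12 and Bik in Hopx high against naive.

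The 5 genes whose log2 values were most like those of Bcl2l11 over the 8 samples, among 9038 genes with a mean of at least 5 bases per Mb, were Ecm1 (r = 0.985), Ahdc1 (0.981), Wbp1l (0.974), Txnip (0.969) and Sgk1 (0.969). Txnip encodes a thioredoxin-binding protein and Sgk1 a serum- and glucocorticoid-regulated kinase. Ecm1 had 80.9 and 68.6 bases per Mb in naive replicates 1 and 2 averaged and in replicate 3, 52.5, 52.6 and 32.5 in Hopx low and 20.4, 17.5 and 9.16 in Hopx high. Sgk1 had 82.2 and 55.3 in naive, 38.9, 53.4 and 34.3 in Hopx low and 13.4, 12.0 and 8.48 in Hopx high. These genes were chosen for their likeness, the samples share their group structure, and the correlations are a description.

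**Figure D5:**
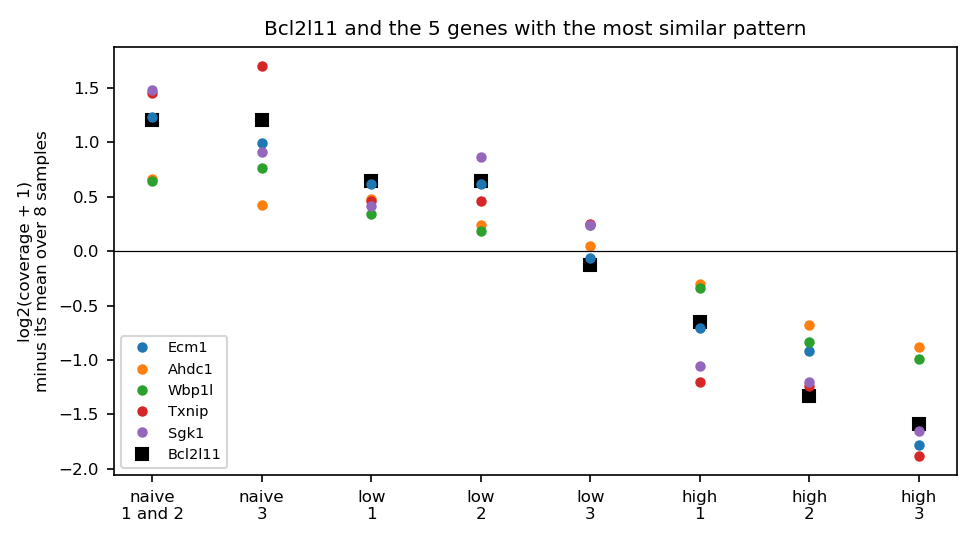
Log2 of coverage plus 1, minus each gene's mean over 8 samples, for Bcl2l11 (black squares) and the 5 genes with the highest Pearson correlation with it (circles). All 6 genes are above their mean in naive and Hopx low replicates 1 and 2 and below it in every Hopx high library.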

How the data were processed

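For 9 libraries the authors deposited a coverage signal per gene (23171 rows), with group means, ratios of means as a fold and unadjusted p-values. Libraries were made with the Ion total RNA kit after removal of ribosomal RNA, per the labels' protocols, and bedtools and mm10 were used, per the submitters' processing notes. Aligner, annotation and strand use: not given in the sources used here. By its values, the deposited signal is the base coverage summed over a gene, plus 1 base, scaled to a common total. Base counts were whole in 100% of values within 0.001, and reads cannot be recovered from them. The added base was removed and values set to bases per Mb.

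Genes with a mean of at least 1 entered limma 3.58.1 (R 4.3.3) on log2(bases per Mb + 1), with a variance trend and Benjamini-Hochberg adjustment over all tested genes at 0.05. On this scale changes of low genes come out too small. The fit was tested on simulated data with the same spread for every gene, changes in Hopx high only, no pairing and alike naive samples. That simulation therefore does not cover the unlike naive samples or the pairing seen here. Ratios were tested by exact permutation. Deviations from the group means correlated between Hopx libraries of one replicate number (r = 0.44, 0.42 and 0.17 over 7837 genes). Between unlike numbers r ran from -0.37 to 0.02. Deviations cancel out within a group, so a positive r between like numbers by itself lowers r between unlike numbers. By the rule used here, that each r exceeds 0.1, the numbers were taken to pair them, most weakly for replicate 3. The main fits and the permutation took no account of pairing, which entered only as the replicate block among the alternatives. Naive samples were in no pair.

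Members and lists were chosen with earlier results of these data known. All members are named. From each list up to 4 called genes with the smallest p are named, or the 2 with the highest mean where none was called, and for Bcl2l11 the 5 genes of most similar pattern, leaving out clone names, small RNAs and receptor segments. Other list genes named above, Trp53, Foxo1, Foxo3, Ddit3 and Casp6 among them, fall outside this rule. Alternatives were scaling, Gas5 in the total, pseudocount, filter, trend, values as deposited, replicate block, samples in the fit, naive replicates 1 and 2 as separate samples and single replicates left out. Tables were prepared in Python 3.11.15 (pandas 2.3.3) and figures drawn with matplotlib 3.10.9. One gene of the marker lists is not reported here.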

Additional observations from a re-analysis of the deposited data

How the results depend on the processing

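Of 660 member values under the alternatives, 627 kept their direction and side of the threshold, 11 lost and 7 gained a call, and 15 changed sign, none of them called. The sign changes were Bcl2 between Hopx high and Hopx low (-0.26 to 0.22 when a replicate was left out) and Bbc3 (-0.43 to 0.08, 0.0803 being the value without Hopx low replicate 1), each in both fits. Between Hopx high and naive they were Bcl2l1 (-0.0053 with naive replicates 1 and 2 separate and -0.44 to 0.59 when a replicate was left out) and Mcl1 (-0.27 to 0.17), and between Hopx low and naive Bax (-0.32 with scaling by the median gene and -0.10 with Gas5 left out of the total).

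Members called in Hopx high against naive were 1, became 3 with naive replicates 1 and 2 separate, and ran from 1 to 4 when a replicate was left out. In Hopx low against naive they ran from 0 to 2, the 2 without naive replicate 3. In the 6 Hopx libraries the 1 call became 0 with scaling by the median gene, Gas5 left out of the total, a pseudocount of 0.1, no filter, no variance trend and values as deposited, and ran from 0 to 1 when a replicate was left out. The cause was not tested. The replicate block kept every call of a member. The difference in the log2 ratio of Bcl2l11 ran from -1.98 to -1.40 against Bcl2, -1.23 to -0.83 against Bcl2l1 and -1.27 to -0.72 against Mcl1 when a replicate was left out.

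Over all genes, 411 were called in Hopx high against naive (357 higher and 54 lower), 705 with scaling by the median gene (507 and 198), 240 with no filter, 183 with a replicate block and 866 with naive replicates 1 and 2 separate. Leaving out a replicate gave 157 to 2706, the most without naive replicate 3. In Hopx low against naive 33 were called, 58 with a pseudocount of 0.1, 8 with no filter, 56 with values as deposited, 9 with a replicate block, 5 with these groups alone, 166 with naive replicates 1 and 2 separate, and 16 to 2773 when a replicate was left out. Between the Hopx groups 0 were called in the fit to all groups, and 0 to 57 when a replicate was left out. In the 6 Hopx libraries 69 were called, 41 with a pseudocount of 0.1, 0 with no filter, 28 with no variance trend, 9 with values as deposited and 5 to 79 when a replicate was left out. The low coverage of naive replicates 1 and 2 limits what can be said of Bid, Pmaip1 and Bik, where 1 read is worth 1.16 to 1.58 bases per Mb.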
